A study of Bos taurus with 5 samples.

Results

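A cattle RNA sequencing library labelled brain was compared, gene by gene, with a library labelled limb. A gene was counted where its higher value was at least 50 FPKM (fragments per kilobase of transcript, scaled to the mapped fragments of the library, a unit inferred from the values) and at least 4 times the lower value after 1 was added to both. Of the 27607 genes in the table, 2763 reached 50 FPKM in either library, and 735 of these (26.6%) met the rule. The brain-labelled library was the higher for 400 of them (14.5% of the 2763) and the limb-labelled library for 335 (12.1%). These shares are what the rule selects, so nothing is read from them. Each label has 1 library, so the values carry no replicate error, no test was possible, and every difference below is between these libraries and not between tissues.

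The series holds 5 Bos taurus libraries of total RNA, 1 each labelled brain, skin, lung, heart and limb. Cells were lysed and their RNA amplified before library preparation on the Fluidigm C1-HT fluidic circuit, a chip made to process individual cells. No strain, treatment, age, or number of cells or animals is given in the sources used here. The skin-, lung- and heart-labelled libraries enter only where genes are followed beyond the pair.

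Brain tissue is known for neurons and glia, which express synaptic, neurofilament and myelin genes. A limb is built from muscle, cartilage, bone, tendon and connective tissue, and its mesenchyme carries a positional code in the HOX genes. Fibroblasts, the matrix-producing cells of connective tissue, and the contractile cells around vessels occur in both.

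Outside the neural progenitor and astrocyte list, few of the markers of either label were above 0 in the library that carries it. Of 22 neuronal markers, UCHL1, a deubiquitinase abundant in neurons, was the only entry above 0 in the brain-labelled library. It stood at 918 FPKM there and at 2416 FPKM in the limb-labelled library. MAP2, a dendritic microtubule protein, was listed at 0 under the brain label and at 10.5 FPKM under the limb label. Of 15 neural progenitor and astrocyte markers, 7 were above 0 under the brain label and 5 under the limb label. VIM, vimentin, which fibroblasts also express, led them at 1678 and 1399 FPKM, FABP7 of radial glia stood at 114 and 130.0 FPKM, and NES, nestin, at 119.7 and 34.4 FPKM, so none of the 3 met the rule. GJA1 stood at 52.7 and 45.7 FPKM and PAX6 at 34.9 and 20.5 FPKM. SLC1A3 and SOX9 stood at 14.3 and 2.54 FPKM under the brain label and were listed at 0 under the limb label. None of these met the rule either. Of 12 oligodendrocyte markers, 1 was above 0 in each. All 39 HOX genes were listed at 0 in both. Of 24 skeletal muscle markers, 1 was above 0 under the brain label and 2 under the limb label, where ACTA1, skeletal muscle actin, stood at 37.6 FPKM and TNNT1, slow skeletal troponin T, at 18.1 FPKM. Cartilage and bone markers were above 0 for 5 of 24 entries under the brain label and 4 under the limb label, and SPP1, described below with the matrix genes, made up most of their sum under limb. Of 24 limb patterning genes, 4 were above 0 under the brain label and 2 under the limb label. MSX1 and MSX2, homeobox genes of the limb bud and the skull, stood at 31.6 and 33.4 FPKM under the brain label and were listed at 0 under the limb label. PRRX1, a homeobox gene of limb mesenchyme, was listed at 0 under the brain label and at 22.8 FPKM under the limb label. Its levels under skin and heart were higher than under limb, at 282 and 199 FPKM. Under lung it was about the same as under limb, at 22.9 FPKM. Fibroblast markers were above 0 for 12 of 21 entries in each library, with summed levels of 7311 FPKM under the brain label and 8674 FPKM under the limb label. Smooth muscle and pericyte markers were above 0 for 6 of 11 entries in each, and summed to 8613 and 14546 FPKM. Of 12 endothelial markers, 1 was above 0 under the brain label and none under the limb label, and the counts were the same for the 12 macrophage and microglial markers. Both libraries are therefore called by their labels alone.

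The libraries also differed in how many genes they detected. The brain-labelled library had 6599 genes above 0 and the limb-labelled library 5319, while 2166 and 2153 genes reached 50 FPKM. Many members were genes listed at 0 on the lower side. Of the 400 genes higher under the brain label, 237 were listed at 0 under the limb label, and of the 335 higher under the limb label, 139 were listed at 0 under the brain label. Genes that every cell uses were among them, such as UQCRC2 of the respiratory chain at 0 under the limb label and PSMD4 of the proteasome at 0 under the brain label. A value of 0 is therefore given only as listed, and no ratio is given against it. When only genes above 0 in both libraries were counted, 163 were higher under the brain label and 196 under the limb label, so the direction with more genes changed. The part that detection has in the larger number of brain-higher genes was not tested.

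**Figure D1:**
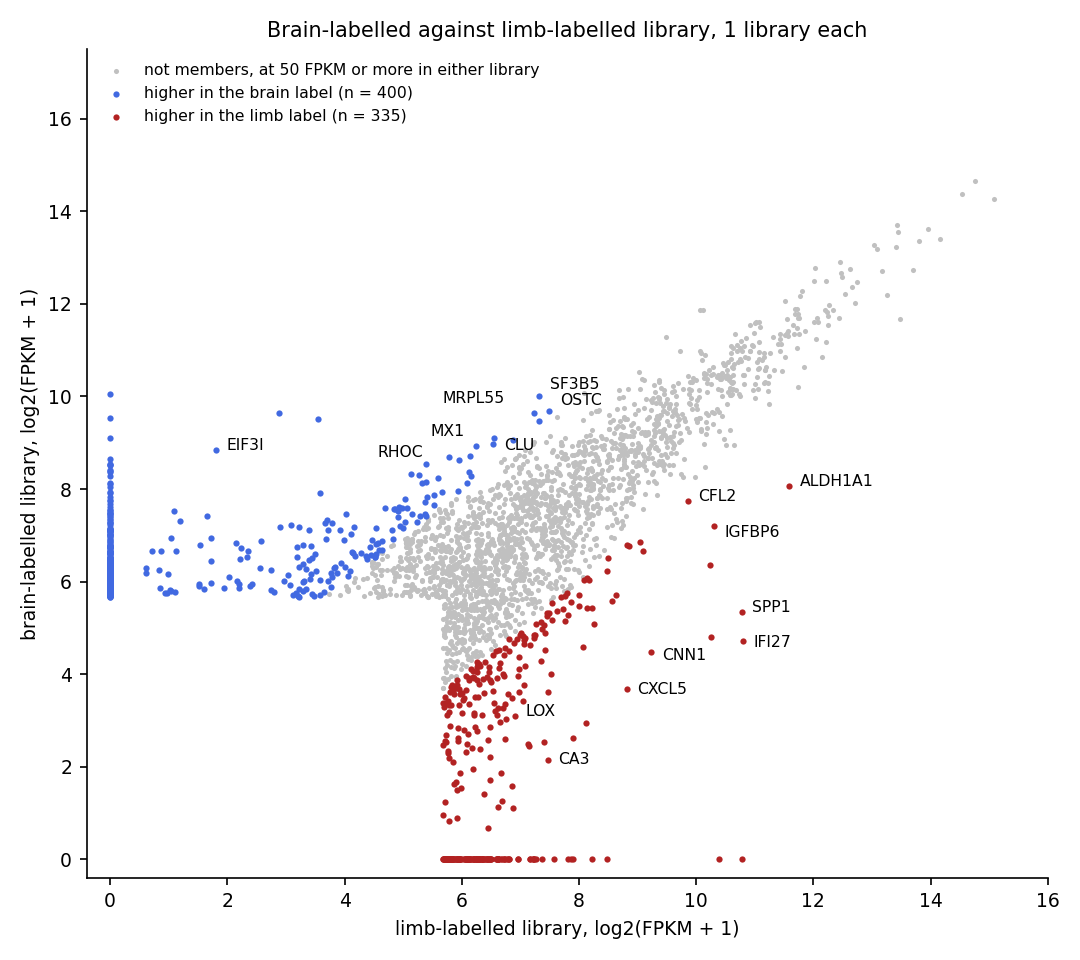
Each point is 1 of the 2763 genes at 50 FPKM or more in either library, with log2(FPKM + 1) of the limb-labelled library on the horizontal axis and of the brain-labelled library on the vertical axis. Blue points are the 400 genes higher under the brain label, red points the 335 higher under the limb label and grey points the rest; the blue column at the left edge holds 237 genes listed at 0 under the limb label, and the red line along the bottom holds 139 listed at 0 under the brain label.

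Most members were of moderate level. The higher value had a median of 82.8 FPKM among the genes higher under the brain label and 80.6 FPKM among those higher under the limb label. It lay below 100 FPKM for 248 of the 400 and 218 of the 335. Among the 1065 genes whose higher value was between 50 and 100 FPKM, 23.3% were members on the brain side and 20.5% on the limb side. These shares fell with level, to 14.8% and 10.98% of 683 genes between 100 and 200 FPKM and to 7.26% and 5.59% of 537 genes between 200 and 500 FPKM. At 500 FPKM or more, 12 of 478 genes were members in each direction, which is 2.51% each.

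**Figure D2:**
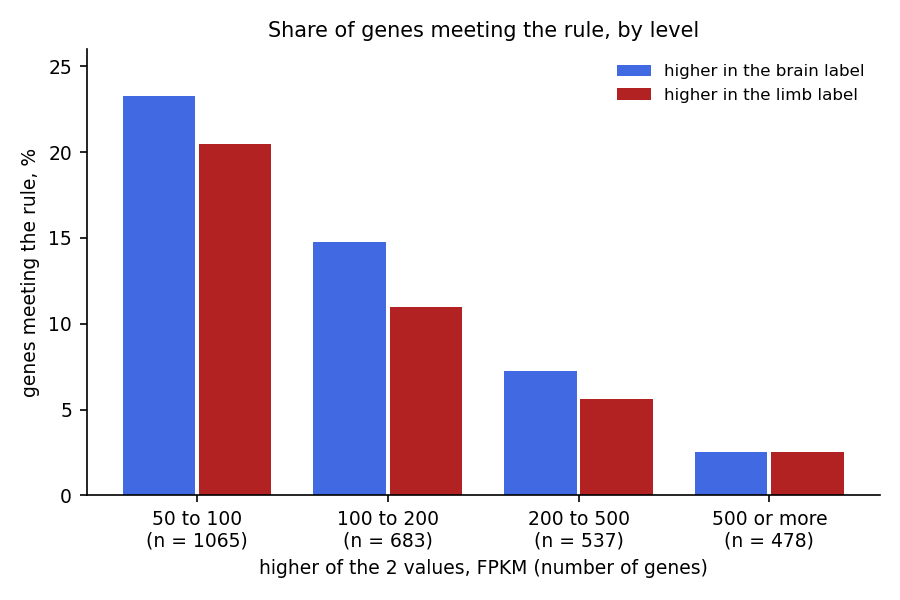
Bars give the percentage of genes that met the rule (vertical axis) in 4 classes of the higher of the brain and limb values in FPKM (horizontal axis, with the number of genes in each class), blue for genes higher under the brain label and red for genes higher under the limb label. The percentages fall from 23.3 and 20.5 in the lowest class to 2.51 in both directions in the highest.

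At the edge of the rule, IMMP1L, a mitochondrial inner membrane protease subunit, was just inside with 91.5 FPKM under the brain label and 22.1 FPKM under the limb label. TUBA1B, an alpha tubulin, was just outside with 1074 and 272 FPKM. On the limb side, NDUFA10 of respiratory complex I was just inside with 89.5 FPKM under the brain label and 362 FPKM under the limb label. ACTC1, cardiac actin, was just outside with 57.7 and 231 FPKM. At the minimum level, UBE2H with 50.1 FPKM under the brain label was inside, whereas ASF1A with 49.8 FPKM was outside, and both were listed at 0 under the limb label.

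The members were then grouped by function with 49 lists of gene symbols, in which a gene can stand more than once. A list held 231 of the 400 brain-higher genes and 167 of the 335 limb-higher genes. For each list, the median of log2(FPKM + 1) under the brain label minus that under the limb label is given over its genes at 50 FPKM or more, and the same median over all 2763 genes was 0.02. The shares over all 2763 genes, 14.5% on the brain side and 12.1% on the limb side, stand beside the counts of each list, and a share near them is no trait of the list. The share of members fell with level, as given above, and none of the 49 lists was matched for level. Because the rule used the same values, the counts are descriptions only.

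**Figure D3:**
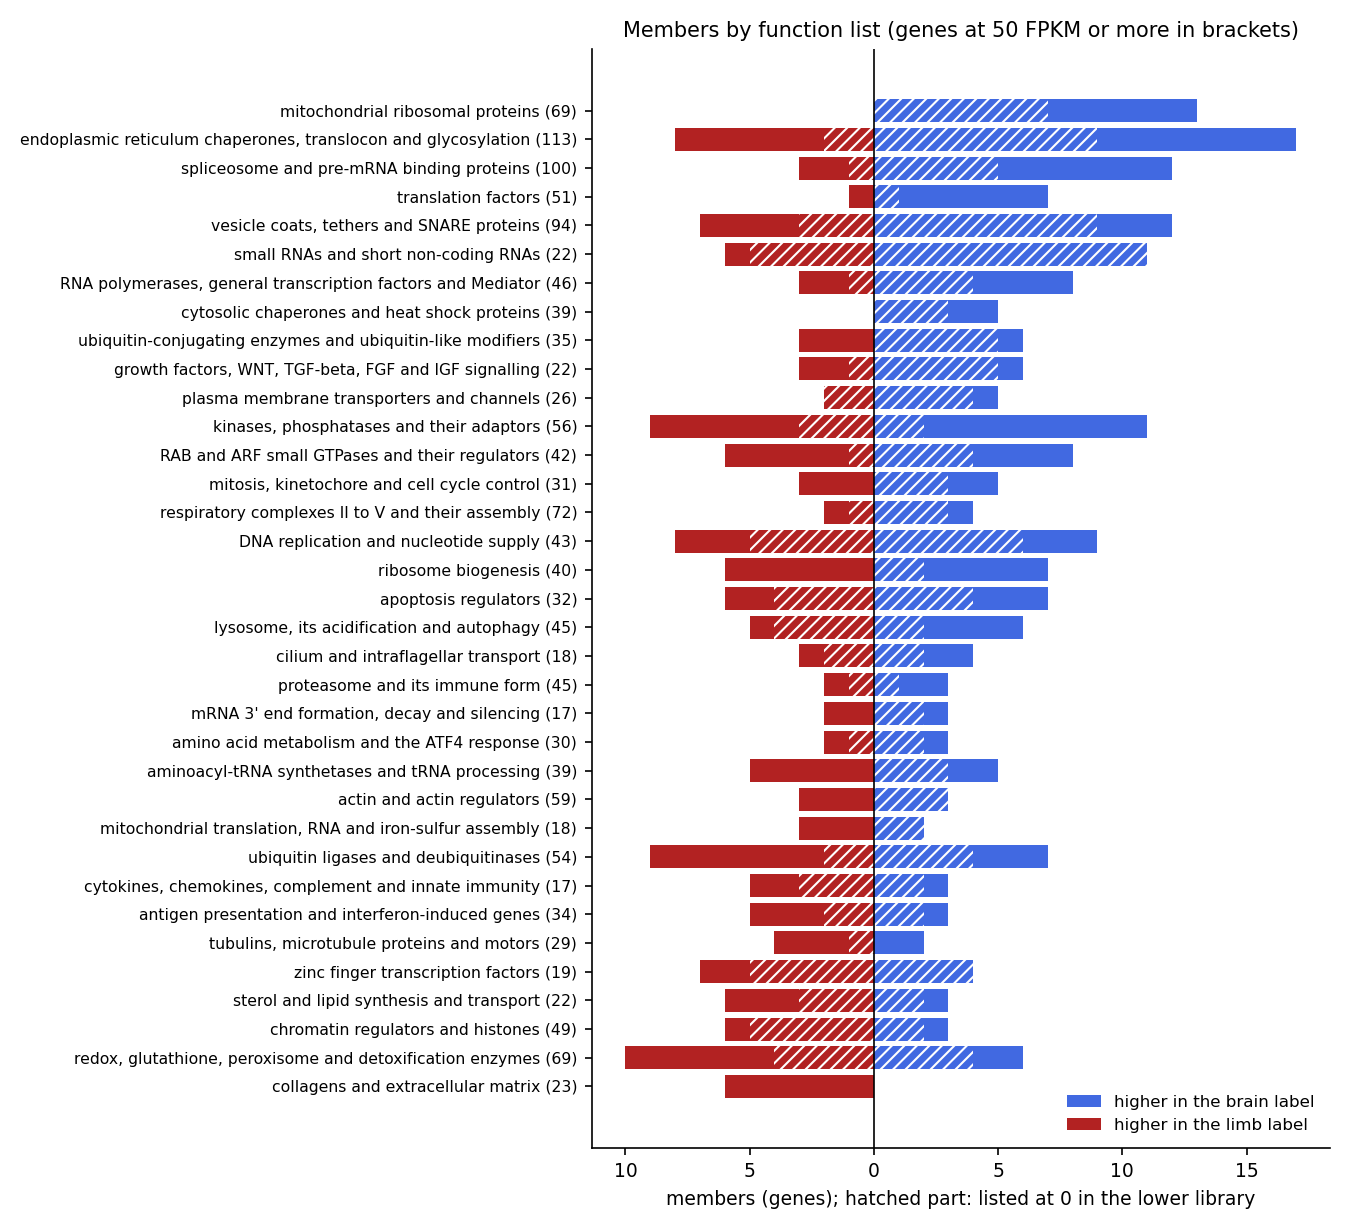
Each bar counts the members of a function list with at least 5 of them, to the right in blue for genes higher under the brain label and to the left in red for genes higher under the limb label, with the number of genes at 50 FPKM or more in brackets; hatching marks genes listed at 0 in the lower library. Mitochondrial ribosomal proteins show 13 members to the right and none to the left, and the extracellular matrix list shows 6 to the left and none to the right.

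Mitochondrial ribosomal proteins, which build the ribosome that translates the mitochondrial genome, met the rule on the brain side only. Of 69 at 50 FPKM or more, 13 were higher under the brain label and 0 under the limb label, and 56 did not meet the rule. The brain-higher share was 18.8%, against 14.5% over all genes. The limb-higher share was 0%, against 12.1% over all genes. MRPL55, a large-subunit protein, stood at 797 FPKM under the brain label and 149.8 FPKM under the limb label, 5.29 times higher on the FPKM + 1 scale. MRPS18C, a small-subunit protein, stood at 372 FPKM under the brain label and was listed at 0 under the limb label. MRPL50, MRPS15 and MRPL49 were likewise listed at 0 under the limb label, against 125, 95.96 and 74.5 FPKM. In all, 7 of the 13 were listed at 0 under the limb label. The list as a whole lay close to all genes, with a median difference of 0.23 on the log2 scale, and of 0.10 over the 62 genes above 0 in both libraries. Of 84 proteins of the cytosolic ribosome, the only member (1.19%) was RPL26L1, at 245 FPKM under the brain label and listed at 0 under the limb label. RPL26L1 is a near copy of RPL26 whose reads can be shared with it. The share of members fell with level, as given above, and these lists were not matched for level.

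Of 51 translation factors, which load ribosomes with mRNA and tRNA, 7 (13.7%) were higher under the brain label, close to the 14.5% over all genes. On the limb side stood 1 (1.96%), against 12.1% over all genes, and 43 met the rule in neither direction. The median difference was 0.44. EIF3I, a scaffold subunit of initiation factor eIF3, had the largest ratio among the members above 0 in both libraries. Its level was 458 FPKM under the brain label, 766 under skin, 276 under lung and 451 under heart, but 2.49 FPKM under the limb label, 131 times below the brain label on the FPKM + 1 scale. The limb-labelled library was thus the only low one of the 5 for this gene. Further eIF3 subunits met the rule by less, with EIF3H at 329 and 68.8 FPKM and EIF3B at 68.3 and 15.7 FPKM. Both were picked after their values were seen. EIF5B, which joins the ribosomal subunits, stood at 62.96 and 8.79 FPKM. EEF2KMT, a methyltransferase of elongation factor 2, was the member on the limb side, at 11.8 FPKM under the brain label and 57.4 FPKM under the limb label.

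Ribosome biogenesis factors met the rule in both directions, with 7 of 40 higher under the brain label and 6 under the limb label. Both shares lay slightly above those over all genes, 14.5% and 12.1%. The exosome, the complex that trims and degrades RNA from the 3′ end, had subunits on both sides. EXOSC1 and EXOSC8 were picked after their values were seen. EXOSC7 and EXOSC8 were brain-higher, at 179 and 116 FPKM under the brain label and at 0 and 4.97 FPKM under the limb label. EXOSC1 and EXOSC3 were limb-higher, at 28.7 and 9.25 FPKM under the brain label and 128 and 68.4 FPKM under the limb label. WDR12, which matures the large subunit rRNA, had 157 FPKM under the brain label and 1.28 FPKM under the limb label.

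Of 100 genes of pre-mRNA splicing, 12 were higher under the brain label, a share of 12% against 14.5% over all genes. On the limb side stood 3 (3%), against 12.1% over all genes, and 85 met the rule in neither direction. The median difference was 0.29. SF3B5, a small subunit of the SF3b complex that recognises the branch point, was the most abundant of them. It stood at 1034 FPKM under the brain label and 159.5 FPKM under the limb label, a ratio of 6.45, with 778, 831 and 488 FPKM under skin, lung and heart. PHF5A, another SF3b subunit, stood at 105 FPKM and was listed at 0 under the limb label, as were the helicase DDX39A (152 FPKM), RBM45 (87.5 FPKM) and SMNDC1 (77.7 FPKM). On the limb side stood DDX6, an RNA helicase of mRNA decay, with 8.63 FPKM under the brain label and 97.7 FPKM under the limb label. GEMIN2, which assembles snRNPs, was listed at 0 under the brain label and stood at 55.5 FPKM.

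RNA polymerases, general transcription factors and Mediator had 8 of 46 members (17.4%) on the brain side, against 14.5% over all genes. On the limb side stood 3 (6.52%), against 12.1%. POLR2J, an RNA polymerase II subunit, stood at 88.2 FPKM under the brain label and was listed at 0 under the limb label. The trimeric kinase that phosphorylates RNA polymerase II had subunits on both sides. Its catalytic subunit CDK7 and assembly factor MNAT1 were higher under the brain label, at 63.2 and 74.3 FPKM against 0 and 10.4 FPKM. Its cyclin CCNH was higher under the limb label, at 12.7 FPKM under the brain label and 77.2 FPKM under the limb label. MNAT1 was picked after its value was seen. NUDT21, which sets the position of mRNA 3′ ends, stood at 217 FPKM under the brain label and was listed at 0 under the limb label.

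Of 33 genes of the mitochondrial import machinery, 4 (12.1%) were higher under the brain label, below the 14.5% over all genes. On the limb side stood 0, against 12.1% over all genes. The other 29 met the rule in neither direction, and the median difference was 0.41. TIMM17B, a channel subunit of the inner membrane translocase, stood at 309 FPKM under the brain label, 349 under skin, 529 under lung and 425 under heart, and was listed at 0 under the limb label. MTX2, of the outer membrane sorting complex, stood at 239 and 10.9 FPKM, a ratio of 20.1. CHCHD4, which oxidises imported proteins, was listed at 0 under the limb label and stood at 68.7 FPKM under the brain label.

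The respiratory chain itself gave few members. Complex I genes had 2 of 52 members (3.85%) on the brain side and 1 (1.92%) on the limb side. Complexes II to V had 4 of 72 (5.56%) and 2 (2.78%), against 14.5% and 12.1% over all genes. UQCRC2, a core protein of complex III, stood at 265 FPKM under the brain label and was listed at 0 under the limb label, against 171 to 242 FPKM under skin, lung and heart. SDHC, a membrane anchor of complex II, stood at 281 and 39 FPKM. COX7A1, the muscle and heart form of a cytochrome c oxidase subunit, was on the limb side, at 115 FPKM under the brain label and 525 FPKM under the limb label, yet its highest value was 710.0 FPKM under the skin label and its level under heart was 59.3 FPKM.

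Enzymes that act in parallel met the rule in opposite directions in mitochondrial metabolism. SUCLA2 and SUCLG2 encode alternative beta subunits of succinyl-CoA ligase, which make ATP and GTP. SUCLA2 stood at 63.4 FPKM under the brain label and was listed at 0 under the limb label, whereas SUCLG2 stood at 9.32 and 52.9 FPKM. FDX1 and FDX2 encode mitochondrial ferredoxins, of which FDX2 serves iron-sulfur cluster assembly. FDX1 stood at 57.98 FPKM and was listed at 0 under the limb label, whereas FDX2 stood at 5.88 FPKM under the brain label and 75.5 FPKM under the limb label. DLD and PDHB of the pyruvate dehydrogenase complex were both on the brain side, at 98.2 and 109.6 FPKM against 0 and 1.91 FPKM. These pairs were picked after their values were seen.

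The list for endoplasmic reticulum chaperones, translocon and glycosylation had 113 genes at 50 FPKM or more. Of these, 17 (15.04%) were higher under the brain label, close to the 14.5% over all genes, and 8 (7.08%) under the limb label, with a median difference of 0.31. OSTC, DDOST and STT3A belong to the oligosaccharyltransferase, which attaches N-glycans to new proteins. DDOST and STT3A were picked after their values were seen. OSTC stood at 817 FPKM under the brain label and 179.6 FPKM under the limb label. DDOST stood at 392 and 60.7 FPKM, and the catalytic subunit STT3A at 152 and 12.8 FPKM, ratios of 6.37 and 11.1. Under the skin, lung and heart labels DDOST lay at 146, 124 and 200.4 FPKM, between those of the pair.

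Collagen-modifying enzymes of the endoplasmic reticulum were among the brain-higher genes too. Of the genes given here, P4HA1, P3H4, CRTAP and PDIA5 were picked after their values were seen. P4HA2 and P4HA1, catalytic subunits of the prolyl 4-hydroxylases that stabilise collagen, stood at 342 and 60.7 FPKM under the brain label and were both listed at 0 under the limb label. P3H4, which takes part in collagen lysine modification, stood at 78.98 and 8.30 FPKM. CRTAP, a partner of collagen prolyl 3-hydroxylase, went the other way, at 11.1 FPKM under the brain label and 63.3 FPKM under the limb label. PDIA4 and PDIA5, disulfide isomerases, were also on the limb side, at 74.02 and 89.97 FPKM against 6.21 and 13.2 FPKM under the brain label.

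Of 94 vesicle coat, tether and SNARE genes, 12 (12.8%) were higher under the brain label and 7 (7.45%) under the limb label. Over all genes the shares were 14.5% and 12.1%. The median difference of the list was -0.10. CLTC, the clathrin heavy chain, stood at 93.8 FPKM under the brain label and 20.97 FPKM under the limb label. SURF4, a cargo receptor for export from the endoplasmic reticulum, stood at 101 and 4.10 FPKM. GOLT1B and GOSR2, Golgi transport proteins, were listed at 0 under the brain label and stood at 297 and 124 FPKM under the limb label. COPB2, a coat protein of retrograde vesicles, stood at 26.4 and 134 FPKM. The list of RAB and ARF small GTPases and their regulators had 8 of 42 members (19.05%) on the brain side and 6 (14.3%) on the limb side. Its symbols also took in ARL6IP4 and ARL6IP6, which are no GTPases. RAB8A, of transport to the plasma membrane, stood at 177 FPKM under the brain label and was listed at 0 under the limb label, and ARL2, of tubulin folding, at 4.99 and 86.8 FPKM.

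Of 39 cytosolic chaperones, 5 (12.8%) were higher under the brain label, below the 14.5% over all genes. On the limb side stood 0, against 12.1% over all genes, and the median difference was 0.44. The 5 include DNAJB11, which also stands in the endoplasmic reticulum list. STIP1, which links HSP70 to HSP90, stood at 63.6 FPKM under the brain label and was listed at 0 under the limb label. DNAJA2, an HSP70 co-chaperone, stood at 116 and 24.1 FPKM. The proteasome list had 3 of 45 members (6.67%) on the brain side and 2 (4.44%) on the limb side. Both lay below the shares over all genes, 14.5% and 12.1%. ADRM1, a ubiquitin receptor of the proteasome, stood at 70.7 FPKM under the brain label and 0.99 FPKM under the limb label. PSMD4, the other such receptor here, was listed at 0 under the brain label and stood at 111 FPKM under the limb label. The 2 receptors thus met the rule in opposite directions. Ubiquitin-conjugating enzymes and ubiquitin-like proteins had 6 of 35 members (17.1%) on the brain side and 3 (8.57%) on the limb side. Ubiquitin ligases and deubiquitinases had 7 (12.96%) and 9 (16.7%) of 54.

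Among the 49 lists, that of the extracellular matrix alone had members on the limb side and none on the brain side. Of 23 genes, 6 (26.1%, against 12.1% over all genes) were higher under the limb label. On the brain side stood 0, against 14.5% over all genes. The median difference was -0.68, and none of the 6 was listed at 0 under the brain label. SPP1, osteopontin, a secreted phosphoprotein of bone and of injured or inflamed tissue, stood at 39.7 FPKM under the brain label, 0 under skin, 93.1 under lung, 886 under heart and 1753 under limb, 43.1 times higher under limb than under brain on the FPKM + 1 scale. LOX, which crosslinks collagen and elastin, stood at 7.53 FPKM under the brain label and 119.7 FPKM under the limb label, with a higher value, 276 FPKM, under skin. THBS1, a matricellular glycoprotein, stood at 23.8 and 143 FPKM. TNC, tenascin C, stood at 17.6 and 76.6 FPKM, EFEMP2, an elastic fibre protein, at 16.4 and 70.3 FPKM, and ECM2 at 3.89 and 53.6 FPKM. The fibrillar collagen COL1A1 did not follow, with 131 FPKM under the brain label and 74.4 FPKM under the limb label, and was no member.

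Regulators of contractile actin included large differences on the limb side. CNN1, calponin of smooth muscle, stood at 21.4 FPKM under the brain label, 92.7 under skin, 22.8 under lung, 282 under heart and 601 under limb, a ratio of 26.8 between limb and brain. CNN2, its more widely expressed relative, stood at 36.95 and 174 FPKM. CFL2, the muscle cofilin, which severs actin filaments, stood at 213 and 926 FPKM. On the brain side the list held ARPC1B, of the branched actin complex, at 84.7 FPKM, CORO1B at 52.4 FPKM and CAPZB at 52.1 FPKM, all listed at 0 under the limb label. Counted over the whole list, 3 of 59 genes (5.08%) were members in each direction, against 14.5% and 12.1% over all genes. The summed smooth muscle markers given above were higher under the limb label as well, and CNN1 is one of them; the part of such cells in these values was not tested. RHOC, a GTPase that drives actomyosin contraction, went the other way, at 412 FPKM under the brain label and 53.9 FPKM under the limb label.

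Further genes linked to muscle stood on the limb side. CA3, a carbonic anhydrase abundant in slow muscle and fat, stood at 3.42 FPKM under the brain label, 0 under skin, lung and heart, and 176 FPKM under the limb label. ANKRD2, a stretch-responsive muscle protein, stood at 11.2 FPKM under the brain label and 126 FPKM under the limb label, and was also listed at 0 in the other 3 libraries. CA3 and ANKRD2 were picked after their values were seen, and, as given above, 22 of the 24 skeletal muscle markers were listed at 0 under the limb label.

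Binding proteins of the insulin-like growth factors divided between the directions. IGFBP6, which binds IGF2 by preference, stood at 145 FPKM under the brain label and 1264 FPKM under the limb label, with 407, 1044 and 452 FPKM under skin, lung and heart. IGFBP4 stood at 51.1 and 397 FPKM. IGFBP5, in contrast, stood at 64.9 FPKM under the brain label and was listed at 0 under the limb label. Of the 22 genes of the growth factor list, 6 (27.3%, against 14.5% over all genes) were higher under the brain label. On the limb side stood 3 (13.6%, against 12.1%). The brain side also held the WNT antagonist SFRP2 at 57.03 FPKM and the receptor adaptor GRB2 at 80.9 FPKM, both listed at 0 under the limb label. ID2, a transcriptional inhibitor induced by BMP, stood at 96.2 and 22.1 FPKM.

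ALDH1A1, a retinaldehyde dehydrogenase, which makes retinoic acid, was higher under the limb label. It reached 3075 FPKM there, the highest value of any member in either direction, against 268 FPKM under brain, 317 under skin, 2.34 under lung and 0 under heart. ALDH1A3, a related enzyme picked after its value was seen, stood at 86.1 FPKM under the limb label and between 0 and 4.76 FPKM in the other 4 libraries. RARRES2, chemerin, a retinoid-responsive chemoattractant, was above 0 under the limb label alone, at 149 FPKM. In the list of redox and detoxification enzymes, 10 of 69 genes (14.5%) were higher under the limb label, against 12.1% over all genes. On the brain side stood 6 (8.70%), against 14.5% over all genes. MGST1, a microsomal glutathione transferase, was listed at 0 under the brain label and stood at 223 FPKM under the limb label. TXNRD1, thioredoxin reductase, stood at 8.16 and 93.97 FPKM. On the brain side, catalase (CAT) stood at 57.5 FPKM and was listed at 0 under the limb label, and CYP3A4, a drug-metabolising cytochrome P450, was above 0 under the brain label alone, at 281 FPKM.

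Interferon-induced genes met the rule in both directions. MX1, a GTPase that blocks viral replication, stood at 487 FPKM under the brain label, 29.1 under skin, 175 under lung, 101 under heart and 74.7 under limb. ISG15, a ubiquitin-like modifier induced by interferon, stood at 333 FPKM under brain, 0 under skin, 47.3 under lung, 9.77 under heart and 0 under limb. The brain-labelled library was thus the highest of the 5 for both. IFI27 went the opposite way, at 25.3 FPKM under brain and 1784 FPKM under limb, a ratio of 67.9, and was listed at 0 in the other 3 libraries. The related entry ISG12(B) stood at 80.99 FPKM under brain and 1199 FPKM under limb, with 535 FPKM under heart. Reads of these related genes can be shared, so how they divide between the entries is uncertain. The list of interferon and antigen presentation genes had 3 of 34 members (8.82%) on the brain side, against 14.5% over all genes. On the limb side stood 5 (14.7%), against 12.1%, and the median difference was 0.09.

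Cytokines and chemokines were few, with 3 of 17 members (17.6%, against 14.5% over all genes) on the brain side. On the limb side stood 5 (29.4%, against 12.1%). IL6 stood at 165 FPKM under the limb label and 147 FPKM under heart, and was listed at 0 under brain, skin and lung. CXCL5, a neutrophil chemoattractant, stood at 11.7 FPKM under brain and 449 FPKM under limb, with its highest level, 763 FPKM, under skin. CCL17, a T cell chemoattractant, stood at 162 FPKM under brain, 0 under skin, 293 under lung, 265 under heart and 0 under limb. The urokinase system was divided as well. Urokinase (PLAU) stood at 183 FPKM under brain and 1.14 FPKM under limb, whereas its receptor PLAUR was listed at 0 under brain and stood at 68.8 FPKM under limb. Both had their highest value under heart, at 565 and 301 FPKM.

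**Figure D4:**
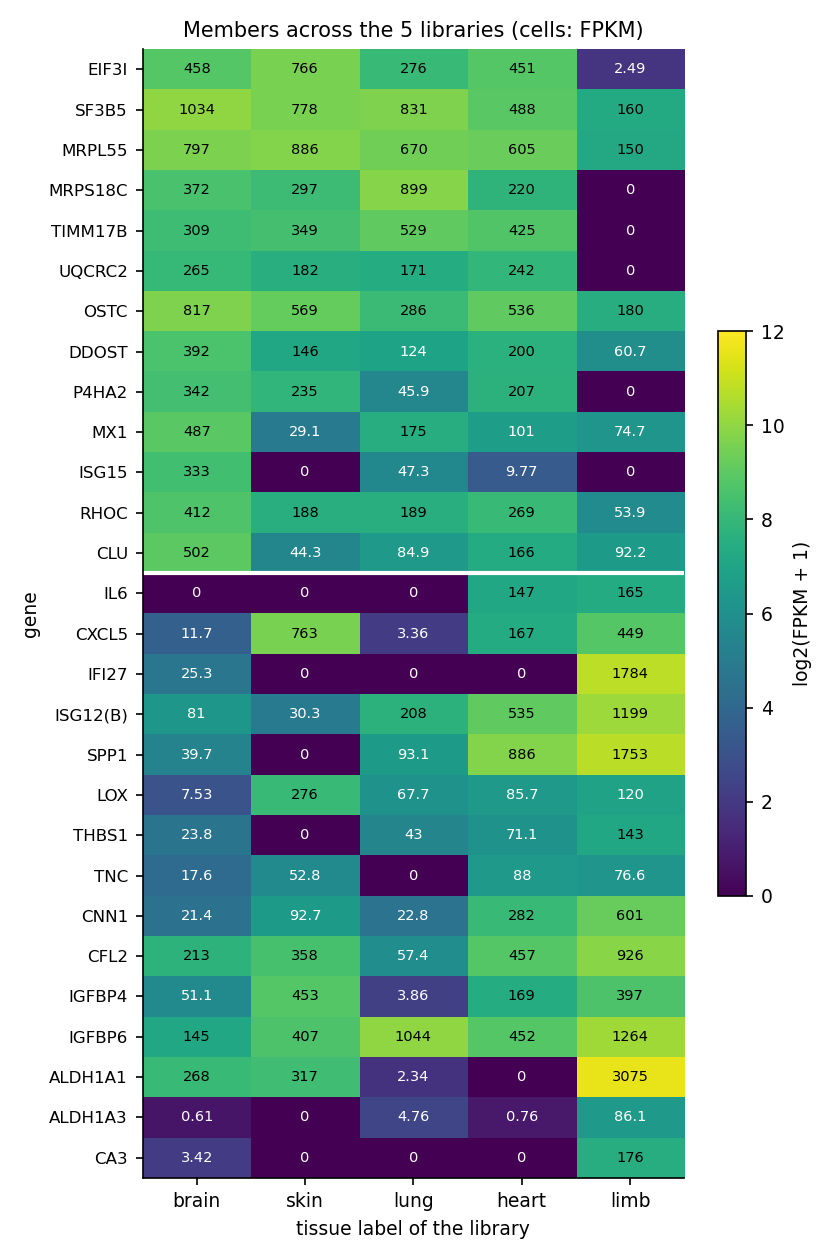
Levels of 28 members in the 5 libraries (columns, by label), with the colour giving log2(FPKM + 1) and each cell printing the FPKM; genes above the white line were higher under the brain label and those below it under the limb label. For EIF3I, TIMM17B and UQCRC2 the limb column is low and the other 4 are high, whereas for IFI27 and CA3 the limb column is high and the other 4 are low.

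Kinases, phosphatases and their adaptors had 11 of 56 members (19.6%) on the brain side, against 14.5% over all genes. On the limb side stood 9 (16.1%), against 12.1%. Subunits of AMP-activated protein kinase, the sensor of cellular energy, met the rule in both directions. Those given here were picked after their values were seen. PRKAG2, a gamma subunit, stood at 89.4 FPKM under the brain label and 19.97 FPKM under the limb label. The alternative gamma subunit PRKAG1 stood at 14 and 72.8 FPKM, and the catalytic subunit PRKAA1 at 16.8 and 75.5 FPKM, both higher under limb. GNB1, a G protein beta subunit, stood at 109 FPKM under brain and 9.82 FPKM under limb. CSNK1A1, casein kinase 1 alpha, stood at 35.1 FPKM under brain and 184 FPKM under limb.

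Genes of DNA replication and nucleotide supply had 9 of 43 members (20.9%) on the brain side, against 14.5% over all genes. On the limb side stood 8 (18.6%), against 12.1%. The 9 include NUDT21, described above for mRNA 3′ ends. RFC3 and TYMS were picked after their values were seen. DUT, which removes dUTP, stood at 204 FPKM under the brain label and was listed at 0 under the limb label, against 1839 FPKM under skin and 1479.9 FPKM under lung. RFC3, of the clamp loader, stood at 60.5 and 4.36 FPKM. PCNA, the clamp itself, was listed at 0 under the brain label and stood at 76.1 FPKM under the limb label. TYMS, thymidylate synthase, was also on the limb side, at 9.03 FPKM under brain and 55.3 FPKM under limb. The mitosis and cell cycle list had 5 of 31 members (16.1%) under brain and 3 (9.68%) under limb. The limb-higher ones included CKS1B, a cyclin-dependent kinase subunit, at 41.9 and 281 FPKM.

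Apoptosis regulators had 7 of 32 members (21.9%) under brain and 6 (18.75%) under limb, against 14.5% and 12.1% over all genes. The 7 include ZMAT5, a minor spliceosome protein taken in by its symbol. BID and FADD, of death receptor signalling, stood at 57.03 and 86.8 FPKM under brain and were listed at 0 under limb. PMAIP1, known as NOXA, stood at 38.96 FPKM under brain and 175 FPKM under limb, and BAD was listed at 0 under brain and stood at 63.8 FPKM under limb. Autophagy genes were members in both directions, of which ATG12 and ATG5 were picked after their values were seen. ATG3 and ATG12 of the conjugation system were higher under brain, at 139 and 143 FPKM against 9.53 and 22.3 FPKM. ATG5, the partner to which ATG12 is joined, was higher under limb, at 6.13 FPKM under brain and 60.2 FPKM under limb. FOS, an immediate early transcription factor, stood at 53.2 FPKM under brain and 220.5 FPKM under limb. ZIC4, a zinc finger factor known from cerebellar development, was above 0 only under the limb label, at 88.5 FPKM. Zinc finger factors as a list had 4 of 19 members (21.1%) under brain and 7 (36.8%) under limb.

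Lipid and amino acid enzymes were members in both directions. Of 22 genes of sterol and lipid synthesis and transport, 3 (13.6%) were higher under brain and 6 (27.3%) under limb. Over all genes the shares were 14.5% and 12.1%. EBP, a sterol isomerase of cholesterol synthesis, stood at 61.4 FPKM under brain and was listed at 0 under limb. STARD4, which carries cholesterol between membranes, was listed at 0 under brain and stood at 80.2 FPKM under limb, and PCYT1A, which controls phosphatidylcholine synthesis, stood at 3.53 and 54.3 FPKM. Of 30 genes of amino acid metabolism and the ATF4 stress response, 3 (10%) were higher under brain and 2 (6.67%) under limb. DDIT3, known as CHOP, a transcription factor of endoplasmic reticulum stress, stood at 176 and 40.5 FPKM. ASS1, of arginine synthesis, was listed at 0 under brain and stood at 111 FPKM under limb, and CTH, which makes cysteine, stood at 14.7 and 124 FPKM.

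Tubulins and motor proteins gave 2 of 29 members (6.90%) on the brain side, against 14.5% over all genes. On the limb side stood 4 (13.8%), against 12.1%. TUBB2A, a beta tubulin abundant in neurons and present in other cells, stood at 145 FPKM under brain, 27.3 under skin, 101 under lung, 84.4 under heart and 6.49 under limb, a ratio of 19.5 between brain and limb. Genes of the cilium had 4 of 18 members (22.2%) under brain and 3 (16.7%) under limb. IFT46, of intraflagellar transport, was above 0 in those 2 libraries alone, at 93.2 and 19.6 FPKM. TTC8, of the complex mutated in Bardet-Biedl syndrome, was above 0 under the limb label alone, at 69.4 FPKM. Of 49 chromatin regulators and histones, 3 (6.12%) were higher under brain and 6 (12.2%) under limb. SIRT3, a mitochondrial deacetylase grouped there by its family, stood at 86.9 FPKM under limb and was listed at 0 under brain, and the histone entries H2AC18 and H4C3, at 0 under brain and 142 and 86.1 FPKM under limb, have near-identical copies that can share reads.

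Abundant members outside every list included CLU, clusterin, a secreted chaperone, which stood at 502 FPKM under brain, 44.3 under skin, 84.9 under lung, 166 under heart and 92.2 under limb. CRIP1 and CRIP2, LIM domain proteins, stood at 547 and 531 FPKM under brain and 93.2 and 116 FPKM under limb. For both genes the heart label was above the brain label, at 760.1 and 731 FPKM. BEX2, of a family expressed in brain and endocrine tissue, was listed at 0 under the brain label and stood at 354 FPKM under the limb label.

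Small RNAs are short transcripts, for which a value divided by length, such as FPKM, is inflated. Of 22 at 50 FPKM or more, 11 (50%) were higher under the brain label, all of them listed at 0 under the limb label. On the limb side stood 6 (27.3%), and the shares over all genes were 14.5% and 12.1%. The highest were bta-mir-3533 at 1057 FPKM under the brain label alone and SNORD19B at 1751 FPKM under the limb label alone. Genes outside this list numbered 389 on the brain side and 329 on the limb side.

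The skin-, lung- and heart-labelled libraries were not used to choose the members. For each member, each of these libraries was placed above or below the midpoint between the brain and limb values on the log2(FPKM + 1) scale. Of the 400 brain-higher genes, 217 lay above the midpoint under skin, 248 under lung and 268 under heart, which is the side of the brain label. Of the 335 limb-higher genes, 116, 134 and 154 lay above it, which is the side of the limb label. Among genes at 50 FPKM or more that were no members, the shares above the midpoint were 44.8%, 45.95% and 39.8% for 1001 genes higher under brain, and 40.2%, 39.8% and 36.0% for 1027 genes higher under limb. All these shares lean on the same brain and limb values and on the number of genes each library detects, so they are given as descriptions.

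The limb-labelled library stood alone more often than the brain-labelled one. Of the 735 members, 219 (29.8%) had the other 4 libraries on 1 side of the midpoint and the limb label on the other, and 95 (12.9%) had the brain label alone. Among the 2028 genes at 50 FPKM or more that were no members, these shares were 21.7% and 18.1%. The 219 were made up of 132 genes low under the limb label alone and 87 high under it alone. The 95 were made up of 64 genes high under the brain label alone and 31 low under it alone. Examples named above are EIF3I and TIMM17B, low under limb alone, IFI27 and ALDH1A1, high under limb alone, and CYP3A4, high under brain alone. Listed at 0 in all 4 other libraries were 32 of the brain-higher genes and 31 of the limb-higher genes. The limb-labelled library had 5319 genes above 0 against 6599 under brain, 5991 under lung and 6634 under heart. The skin-labelled library had fewer still, 5109. The 132 were chosen by having the skin, lung and heart labels on the high side, so they cannot be set against these counts. The part that detection has in them was not tested.

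**Figure D5:**
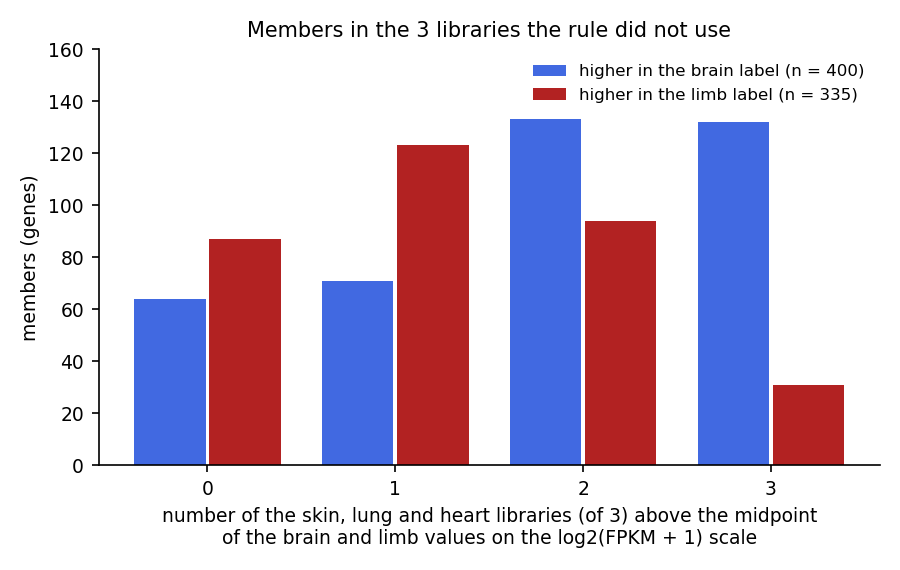
Bars count members (vertical axis) by how many of the skin-, lung- and heart-labelled libraries lay above the midpoint of the brain and limb values on the log2(FPKM + 1) scale (horizontal axis), blue for genes higher under the brain label and red for those higher under the limb label. The blue bar at 3 holds 132 genes low under the limb label alone, and the red bar at 0 holds 87 genes high under the limb label alone.

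The same rule was applied to the pairs that each library forms with the heart-labelled one. The brain and heart labels differed at 513 of 2623 genes (19.6%) and the heart and limb labels at 697 of 2688 (25.9%). These comparisons share libraries with the one described and with each other, so their counts stand side by side only.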

How the data were processed

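The table that the authors deposited gives 5 libraries and 27607 genes, of which 19856 carry a gene name. Its unit is not named; the deposited values were taken as FPKM by elimination, since 98.7% to 99.1% of those above 0 were not whole and library sums of 1072430 to 1172800 exceed the fixed total of TPM. RSEM also writes estimated counts, which need not be whole, so the unit remains uncertain. If the values were such counts, levels of different genes could not be compared. The brain and limb values would then also not be scaled to read depth, and what is said of small RNAs and length would not hold. Bcl2fastq, STAR, RSEM and ARS-UCD1.2 are named in the submitters' processing notes, with versions, annotation and filters not given in the sources used here. Read depth is unknown, so no counting interval is given.

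The rule used a minimum of 50 FPKM, 1 added to both values and a ratio of 4 (Python 3.11.15, numpy 2.4.6, pandas 2.3.3; checked on simulated data). The 2 libraries were compared without a test. Genes entered 49 process lists and 15 marker lists by symbol, so near-named genes can be misplaced. The members and lists were chosen with earlier results of these data known. In each direction the text drew on the 15 named members with the largest ratio, the 10 with the highest value, 4 per list by ratio, 3 on each side of each threshold, markers above 0 and the 3 highest small RNAs. Picked in addition, after their values were seen, were ALDH1A3, ANKRD2, ATG12, ATG5, CA3, CLTC, COPB2, CRTAP, CSNK1A1, DDOST, DNAJA2, EFEMP2, EIF3B, EIF3H, EXOSC1, EXOSC8, ID2, MNAT1, P3H4, P4HA1, PCYT1A, PDIA5, PMAIP1, PRKAA1, PRKAG1, PRKAG2, RFC3, SFRP2, STT3A, SURF4, TNC, TXNRD1 and TYMS. Of 670 named members, 646 symbols matched RefSeq genes (assembly ARS-UCD2.0), and 0 Ensembl identifiers did, so no coordinates are given.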

Additional observations from a re-analysis of the deposited data

How the results depend on the processing

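The 400 brain-higher and 335 limb-higher genes changed most where the rule took in more or fewer genes. A minimum of 10 FPKM gave 1600 and 953, of 100 FPKM 152 and 117, and of 200 FPKM 51 and 42. Requiring values above 0 in both libraries gave 163 and 196, and a ratio of 8 gave 307, within 1.5 times, and 216, beyond it. The minimum and the ratio set how many genes the rule takes in. The requirement above 0 took out the 237 brain-higher and 139 limb-higher genes listed at 0 on the lower side. Why the balance of the directions changed with the minimum was not tested. Under a ratio of 3, adding 0.1 or 10, rescaling by the median ratio, a trimmed mean or an equal total, and leaving out small RNAs, the counts lay between 346 and 498 for brain and between 258 and 422 for limb. The rescalings multiplied the limb values by 1.010, 1.013 and 0.946, which is 0.015, 0.018 and -0.080 on the log2 scale. Of the 320 genes covered by the naming rule, 203 moved by more than 1.5-fold with 0.1 added and 252 with 10 added; direction cannot change when both values gain the same amount. With 10 added, members above the midpoint numbered 206, 223 and 226 (brain-higher; skin, lung, heart) and 107, 122 and 126 (limb-higher). No paired analysis was possible because each label has 1 library.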
